A study of Drosophila melanogaster with 14 samples.

Results

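The loci of the wing morphogen genes decapentaplegic (dpp) and wingless (wg) of Drosophila melanogaster were examined for binding of Yorkie (Yki) and GAGA factor (GAF) in wing imaginal discs and embryos. Members were all peaks of 5 deposited lists that shared at least 1 bp with a window on chromosome arm 2L of the dm3 build, from 2420000 to 2490000 for dpp (70 kb) and from 7290000 to 7330000 for wg (40 kb). Of 29537 peaks, 24 were members, 18 at dpp and 6 at wg. The peaks came from chromatin immunoprecipitation followed by sequencing (ChIP-seq), in which an antibody pulls down a protein or histone mark together with its DNA and stretches rich in the recovered fragments are called as peaks. All animals were of the Iso1 strain, with no transgene or treatment named in the labels. Wing discs are epithelial sacs of the larva from which the wing and part of the thorax develop. They were taken from wandering larvae of instar 3 and gave 1 Yki library, 2 GAF libraries and 2 input libraries. Whole embryos, a mixture of all embryonic tissues, were taken at 8 to 16 hours and gave 3 Yki, 3 GAF, 2 H3K4me3 and 1 input library. Each antibody and tissue had 1 peak list and the inputs had none, so no value below has a replicate error and no test between tissues was possible.

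Dpp is a secreted ligand of the bone morphogenetic protein family, which acts through the receptors Thickveins and Punt and the transcription factor Mad. Wg is a secreted Wnt ligand, which acts through Frizzled receptors and Arrow to stabilise Armadillo. In the wing disc dpp is transcribed along the boundary of the anterior and posterior compartments and wg along that of the dorsal and ventral compartments, and both ligands pattern the disc and affect its growth. In embryos Dpp patterns the dorsal side and Wg the segments. Yki is the coactivator that the Hippo growth control pathway restrains, and it reaches DNA through partners such as Scalloped. GAF is the product of the Trithorax-like gene, binds repeats of GA and takes part in opening chromatin. H3K4me3, the trimethyl mark on lysine 4 of histone H3, is found at promoters of transcribed genes.

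Sequencing depth is unknown, and lists of wing discs and of embryos may differ in how they were called, which cannot be told apart from a difference between tissues. The wing disc lists held 6491 Yki and 6328 GAF peaks, and the embryo lists 3749 Yki, 6470 GAF and 6499 H3K4me3 peaks. Only wing disc peaks have a score. It is the authors' own value, on an unstated scale, and serves here for ranks within a list. In the RefSeq gene table of Release 6, a later build than that of the peaks, the neighbouring protein-coding genes of dpp are CG44139 and Slh, and those of wg are Wnt4 and Wnt6, both Wnt ligand genes. Gene positions on dm3 were not used here, so no peak is placed on a promoter, exon or intron, and whether a peak acts on dpp, wg or a neighbour was not tested.

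At dpp GAF had 5 peaks in wing discs and 5 in embryos, which shared at least 1 bp pair by pair. Yki had 5 peaks there in wing discs and 1 in embryos. At wg the tissues shared 1 Yki position and no GAF position, and no H3K4me3 peak was listed. Of the whole GAF lists, 61.1% of wing disc and 59.2% of embryo peaks shared sequence with the other tissue. For Yki these shares were 38.7% and 66.2%. With a reciprocal overlap of 50%, 2 of 5 GAF wing disc peaks at dpp met an embryo peak, against 41.5% of the list. At dpp embryos also had 2 H3K4me3 peaks, or 0.286 per 10 kb, against 0.487 over the rest of 2L. At wg there were 2 Yki and 2 GAF peaks in wing discs, against 1 Yki and 1 GAF peak in embryos. The Yki list of wing discs was longer than that of embryos over the genome too (6491 peaks against 3749).

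Per 10 kb of the dpp window there were 0.714 Yki peaks in wing discs, against 0.494 over the rest of 2L. GAF peaks also numbered 0.714 per 10 kb in wing discs, against 0.435 over the rest of 2L, and 0.714 in embryos, against 0.442. Yki embryo peaks were sparser at dpp than elsewhere on the arm, with 0.143 per 10 kb against 0.266. All of these counts were common ones elsewhere. Of 1716 consecutive stretches of 70 kb over the chromosome arms, 27.3% held more than 5 Yki wing disc peaks, 24.9% more than 5 GAF wing disc peaks and 22.8% more than 5 GAF embryo peaks. For Yki in embryos, 52.1% of the stretches held more than the 1 peak of dpp. For H3K4me3 in embryos, 52.6% held more than the 2 peaks of dpp. At wg, wing discs had 0.5 Yki and 0.5 GAF peaks per 10 kb, and embryos 0.25 of each. Of 3003 stretches of 40 kb, 34.4% held more Yki and 34.9% more GAF wing disc peaks than wg, and 32.6% held more Yki and 49.3% more GAF embryo peaks.

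By length, GAF wing disc peaks covered 7260 bp or 10.4% of the window, against 5.08% of the chromosome arms. GAF embryo peaks covered 4207 bp or 6.01% of it, against 5.11% of the arms. Yki wing disc peaks covered 2.42% of the dpp window and 2.93% of the arms. H3K4me3 embryo peaks covered 2.67% of the dpp window and 8.95% of the arms. In the wg window Yki wing disc peaks covered 5.20%, and GAF wing disc peaks 5.08%, which equals their share of the arms. GAF embryo peaks covered 0.522% of the wg window. No test was made of these shares, which rest on 1 window each.

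**Figure D1:**
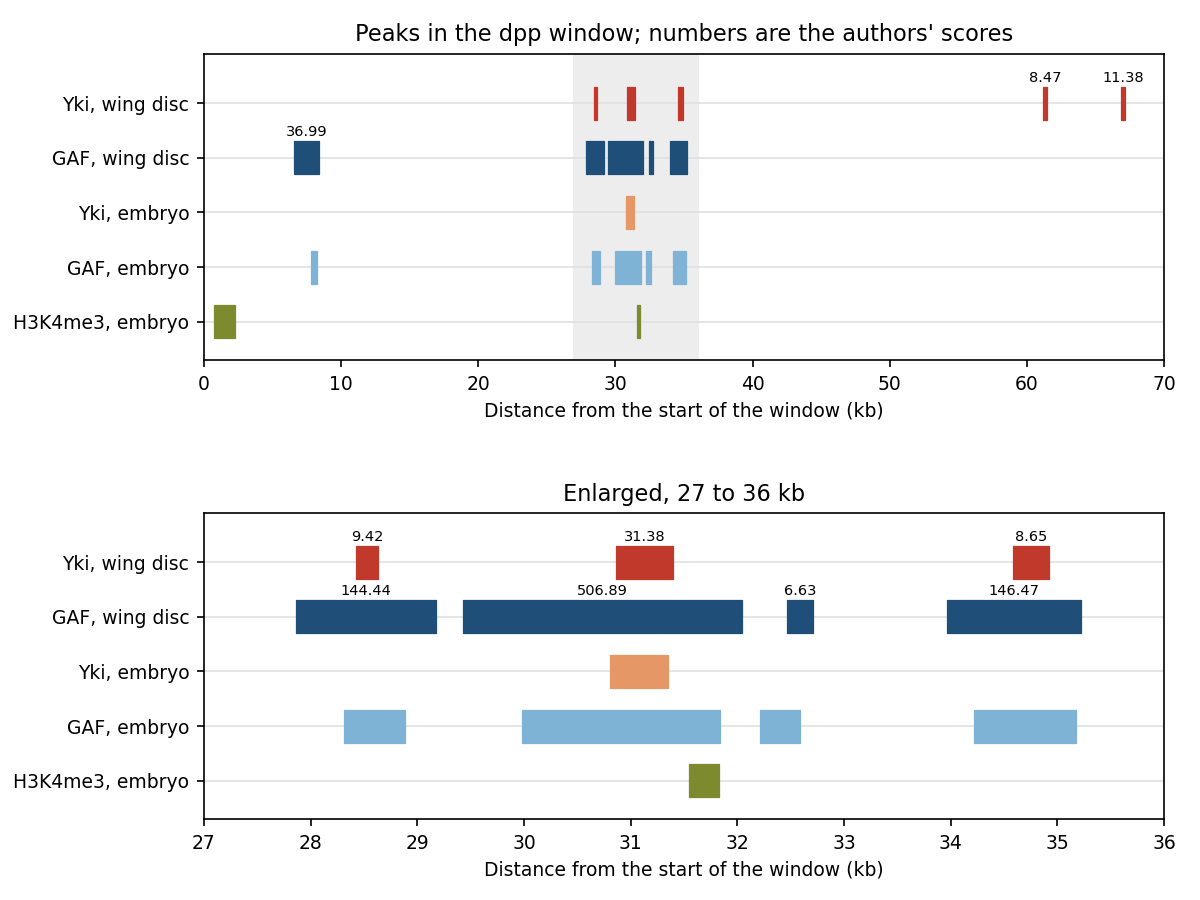
Peaks of the 5 lists in the dpp window, against distance from the start of the window in kb, with the stretch from 27 to 36 kb enlarged below. Each block is 1 peak drawn to scale, with the authors' score above wing disc peaks (in the upper panel only outside the enlarged stretch). GAF blocks of wing discs lie over GAF blocks of embryos at all 5 positions, and the Yki embryo block lies under the Yki wing disc block scored 31.38.

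At dpp, 12 of the 16 Yki and GAF peaks lay in a stretch of 7.36 kb, from 2447862 to 2455221, which is 10.5% of the window. This stretch was delimited after the positions were seen, as the run of sites less than 10 kb apart that held the most sites. No such count is given for other stretches of the arms. It held 3 Yki and 4 GAF peaks of wing discs, and 1 Yki and 4 GAF peaks of embryos. Joining touching peaks of the Yki and GAF lists gave 7 sites at dpp, of which 4 were in this stretch. On its far side no Yki or GAF peak was listed for 26.0 kb, from 2455222 to 2481195.

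The site with all lists present stood at 2449431 to 2452044, a width of 2614 bp. Its GAF wing disc peak spanned the whole site and had a score of 506.89, rank 139 of 6328, with 97.8% of that list scoring lower. Of the 25% of the list with the highest scores, 90.7% touched Yki in wing discs and 82.9% in embryos, 99.5% touched GAF in embryos and 52.8% touched H3K4me3. The dpp peak touched all 4. The GAF embryo peak under it ran from 2449982 to 2451833 (1852 bp) and was wider than 88.5% of its list. The GAF peak was therefore among the highest in wing discs and among the wide ones in embryos, where no score is given.

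Yki lay at the same place in both tissues. Its wing disc peak ran from 2450861 to 2451401 (541 bp) with a score of 31.38, above 91.8% of its list, and its embryo peak from 2450805 to 2451351 (547 bp). They shared 491 bp, and their midpoints were 53.0 bp apart, where the median over 2515 such Yki pairs was 102.5 bp (quartiles 43.75 and 218.0). Both Yki peaks lay wholly inside the GAF peak of their own tissue, as did 67.8% of the Yki peaks that touched GAF in wing discs and 89.8% in embryos. Sites in all 4 lists of Yki and GAF made up 13.5% of 11285 sites over the genome, with a median width of 2025 bp.

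The H3K4me3 peak at this site was short and lay beside Yki rather than on it. It ran from 2451552 to 2451828 (277 bp, where the list's median was 1262 bp), and 8.23% of H3K4me3 peaks were narrower. It lay inside both GAF peaks, as did 7.40% of H3K4me3 peaks for GAF in wing discs and 5.77% for GAF in embryos. It began 150 bp after the Yki wing disc peak ended and 200 bp after the Yki embryo peak ended. Its midpoint was 952.5 bp from that of this GAF wing disc peak and 782.5 bp from that of this GAF embryo peak. It therefore counted as shared at 1 bp but not with midpoints within 500 bp. Of all H3K4me3 peaks, 2.63% shared sequence with GAF in both tissues and with no Yki peak.

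Both neighbouring sites with Yki had it in wing discs alone and GAF in both tissues. On one side, at 2447862 to 2449175, the GAF wing disc peak had a score of 144.44 (above 73.5% of the list) and the GAF embryo peak was 564 bp wide. The Yki wing disc peak inside it was 203 bp wide with a score of 9.42, above 16.5% of its list. On the other side, at 2453969 to 2455221, the GAF wing disc peak scored 146.47 (above 73.8%) and the GAF embryo peak was 954 bp wide, while the Yki wing disc peak of 343 bp scored 8.65, above 10.4%. Both Yki peaks were thus low in their list under GAF peaks that were well above the middle of theirs. Sites of this kind, Yki in wing discs with GAF in both tissues, made up 5.02% of all sites.

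The 2 GAF sites without Yki differed in size. At 2426550 to 2428380 the GAF wing disc peak was 1831 bp wide with a score of 36.99 (above 51.6% of the list), and the embryo peak was 455 bp wide. At 2452211 to 2452709 the wing disc peak of 248 bp had a score of 6.63, rank 6321 of 6328, and shared 131 bp with an embryo peak of 382 bp. Few wing disc peaks of GAF scored lower than this one. GAF in both tissues without Yki made up 9.26% of all sites.

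Towards the far end of the window stood 2 sites with Yki in wing discs and no other list. They ran from 2481196 to 2481500 with a score of 8.47 (above 8.33% of the list) and from 2486843 to 2487144 with a score of 11.38 (above 34.9%). The nearest GAF wing disc peaks were 11205 bp and 5561 bp away. Over the genome 12.6% of Yki wing disc peaks shared sequence with none of the other 4 lists, and 17.5% of all sites were Yki in wing discs alone. The remaining H3K4me3 peak, at 2420695 to 2422284 (1590 bp), was 4265 bp from the nearest factor peak, and 42.1% of H3K4me3 peaks touched no factor peak.

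**Figure D2:**
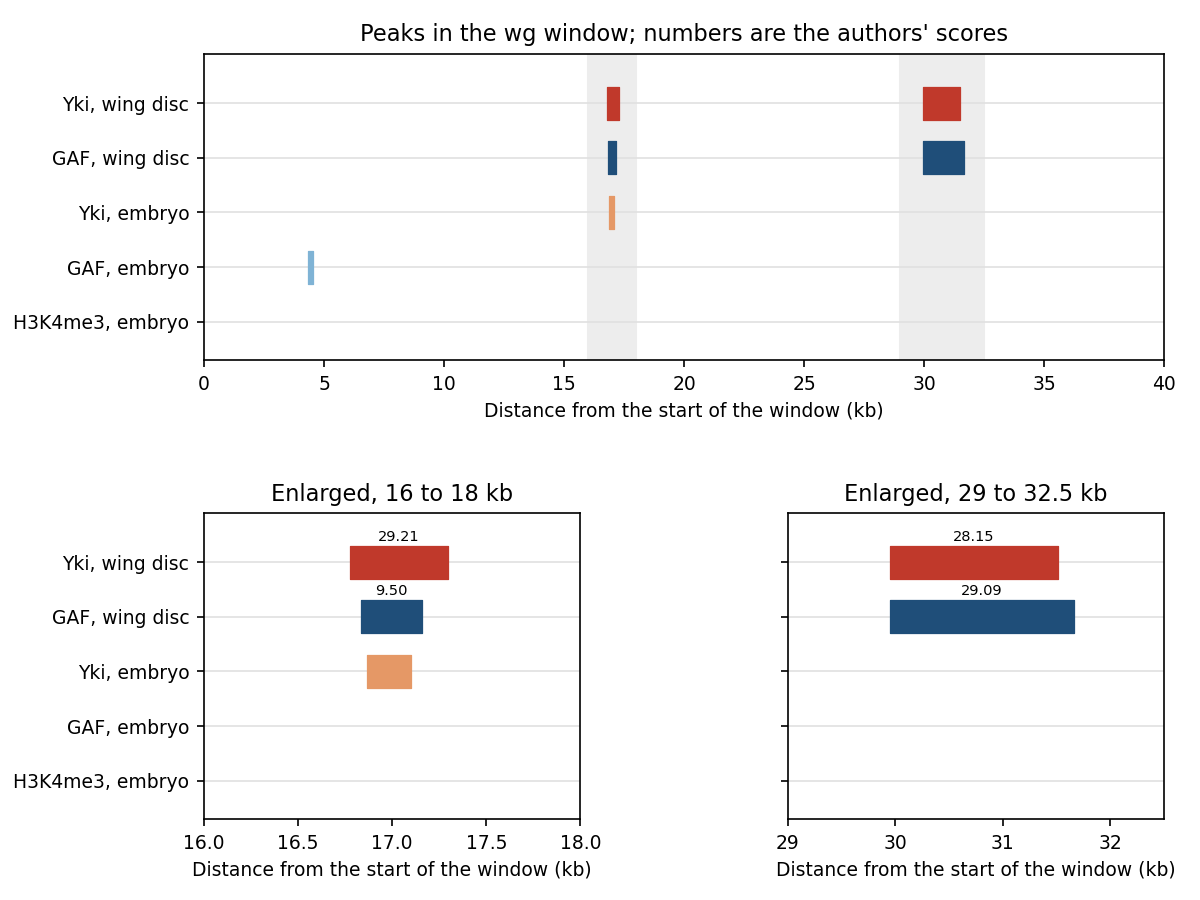
Peaks of the 5 lists in the wg window, against distance from the start of the window in kb, with both wing disc sites enlarged below. Blocks are peaks drawn to scale, with the authors' score above wing disc peaks (in the lower panels). The row of H3K4me3 is empty, and the GAF embryo block lies apart from every other block.

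At wg, Yki peaks of wing discs were high in their list and lay on GAF at both positions, and GAF of embryos was listed at neither. The wing disc sites were 12656 bp apart. Their Yki scores, 29.21 and 28.15, exceeded 89.7% and 88.6% of the Yki list. Their GAF scores, 9.50 and 29.09, exceeded 7.16% and 45.9% of the GAF list. For the 25% of the Yki list with the highest scores, 86.0% lay on GAF of wing discs, 68.7% on GAF of embryos and 73.0% on Yki of embryos.

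The site at 7306775 to 7307294 was the one place at wg with Yki in both tissues. The Yki wing disc peak was 520 bp wide, and the Yki embryo peak of 233 bp, from 7306869 to 7307101, lay wholly inside it with a midpoint difference of 49.5 bp. The GAF wing disc peak of 327 bp also lay inside the Yki peak and covered 62.9% of it. No GAF embryo peak was listed within 12245 bp of the site. Of Yki embryo peaks, 7.76% had Yki and GAF of wing discs but no GAF of embryos, and such sites made up 2.06% of all sites. Of those sites over the genome 89.7% touched embryo H3K4me3, whereas the wg site lay 29824 bp from the nearest H3K4me3 peak.

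Under a high Yki peak the GAF score at this site was low. In that top 25%, 1415 Yki peaks lay on at least 1 GAF wing disc peak. The highest GAF score under each of these Yki peaks had a median of 299.98 (quartiles 89.4 and 429.65). For 1.13% of these Yki peaks that highest score was below the 9.50 of this site. For 13.3% it was below the 29.09 of the other wg site. Scores of the lists are not on a stated common scale, so the comparison is one of ranks within each list.

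The site at 7319951 to 7321659 carried Yki and GAF in wing discs alone. Its Yki peak was 1560 bp wide, above 97.3% of the Yki list, and shared 1557 bp with a GAF peak of 1706 bp and so covered 91.3% of that GAF peak. No other Yki peak of either window was as wide. Such sites, with both proteins in wing discs and neither in embryos, made up 7.14% of all sites, and their median width was 697.5 bp against 1709 bp here. The nearest embryo peaks of Yki and GAF were 12849 bp and 18619 bp from the Yki peak.

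GAF in embryos was listed at wg at one place, from 7294321 to 7294529. The peak was 209 bp wide, and 2.23% of its list was narrower. The nearest peak of another list was 12245 bp away. Of GAF embryo peaks, 35.4% shared sequence with no other list, and 21.5% of all sites were GAF in embryos alone. Embryo H3K4me3 had no peak in the wg window, as in 38.3% of 3003 stretches of 40 kb. The nearest H3K4me3 peaks were 13.1 kb before and 57.5 kb after the window.

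**Figure D3:**
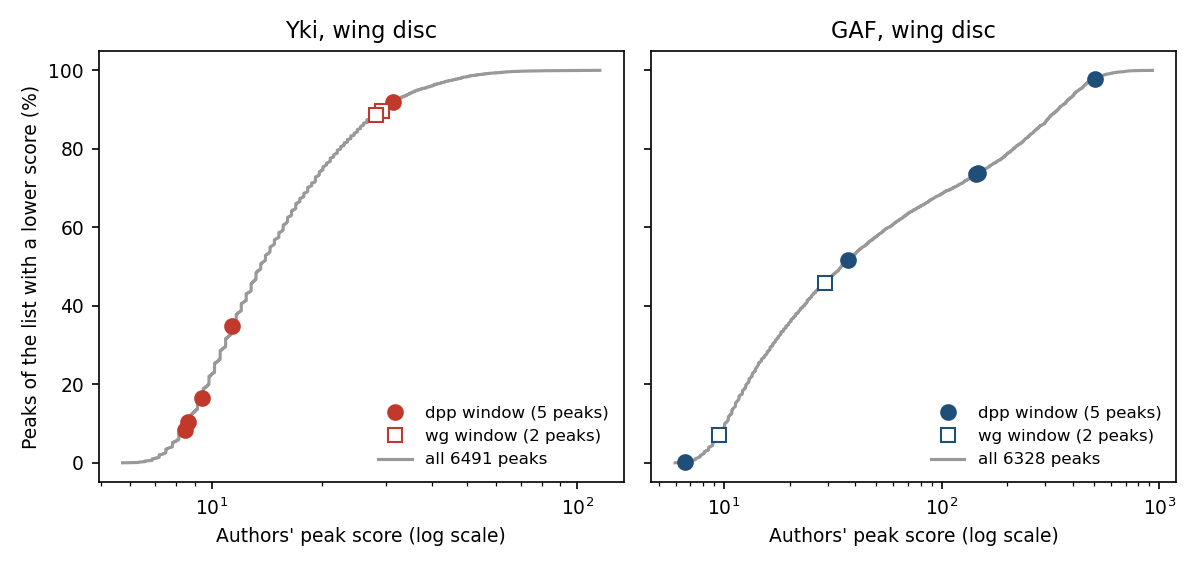
Share of each wing disc list with a lower score (vertical axis, %), against the authors' peak score (log scale), for Yki on the left and GAF on the right. Filled circles are dpp peaks, open squares wg peaks and the line all peaks of the list. At dpp 4 of 5 Yki peaks lie below 35% and 1 above 90%, while both wg Yki peaks lie between 88% and 90%, and the wg GAF peaks lie below 50%.

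Within the windows as set, GAF was shared between tissues at all 5 dpp positions and at no wg position, and Yki at 1 position of each locus. With windows 10 kb longer at both ends, GAF wing disc peaks shared sequence with an embryo peak at 5 of 6 positions at dpp (83.3%) and 1 of 3 at wg (33.3%), and Yki wing disc peaks at 2 of 7 at dpp (28.6%). For GAF at dpp, 5 of 5 wing disc peaks shared sequence with an embryo peak (exact 95% interval 47.8 to 100%), where 61.1% of the whole list did, and 5 of 5 embryo peaks with a wing disc peak, where 59.2% did. At wg, 0 of 2 GAF wing disc peaks (0 to 84.2%) and 0 of 1 embryo peak did so. For Yki, 1 of 5 wing disc peaks at dpp and 1 of 2 at wg shared sequence with an embryo peak, where 38.7% of the list did. In the other direction the Yki embryo peak of each locus lay on a Yki wing disc peak, as 66.2% of the list did. The intervals cover counting error only, and neighbouring peaks are not independent, so no test of the loci against each other was made. With a reciprocal overlap of 50%, 2 of 5 GAF wing disc peaks at dpp met an embryo peak, close to the 41.5% of the list, and 1 of 5 Yki wing disc peaks at dpp and 0 of 2 at wg met one, against 24.2% of the list.

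The GAF wing disc peak was the wider of the pair at 4 of 5 dpp positions, and 4 of the 5 embryo peaks lay wholly inside it. Over the genome the wing disc peak was the wider in 53.1% of 3868 GAF pairs, and 43.6% of paired embryo peaks lay inside a wing disc peak. Peak width also moves with depth and calling, which were not given for the lists.

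Yki lay on GAF in wing discs at 3 of 5 peaks at dpp (14.7 to 94.7%) and at 2 of 2 at wg, where 63.0% of the list did. GAF wing disc peaks carried Yki at 3 of 5 and 2 of 2, where 51.8% did. In embryos the Yki peak lay on GAF at dpp and not at wg, where 68.8% of the list did, and with 1 peak a locus this says little. Across tissues, 3 of 5 Yki wing disc peaks at dpp and 0 of 2 at wg lay on GAF of embryos (43.2% of the list), and the Yki embryo peak of each locus lay on GAF of wing discs (72.2% of the list). With so few peaks, none of these counts stands apart from the share of its list, and the same holds for the reciprocal overlaps that follow. At dpp the 3 Yki wing disc peaks lay wholly inside GAF peaks and filled 15.4%, 20.7% and 27.4% of them, and none met a reciprocal overlap of 50%, which 20.3% of the Yki wing disc list met. The Yki embryo peak at dpp filled 29.5% of its GAF peak and did not meet it either, where 15.4% of the Yki embryo list did. At wg both Yki wing disc peaks met it, 1 with a GAF peak that covered 62.9% of the Yki peak and 1 with a Yki peak that covered 91.3% of the GAF peak.

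Embryo H3K4me3 touched no Yki peak of either locus and touched GAF at 1 dpp site. With the dpp window 10 kb longer at both ends, Yki lay on it at 28.6% of wing disc peaks (2 of 7) and 50% of embryo peaks (1 of 2). Of the Yki peaks, 0 of 5 at dpp (0 to 52.2%) and 0 of 2 at wg lay on it in wing discs, where 52.2% of the list did, and 0 of 1 at each locus in embryos, where 45.2% did. Of the GAF peaks, 1 of 5 at dpp and 0 of 2 at wg lay on it in wing discs, where 37.2% did, and 1 of 5 and 0 of 1 in embryos, where 24.6% did. In the top 25% of the Yki wing disc list by score, to which 1 dpp peak and both wg peaks belong, 56.9% lay on embryo H3K4me3. The mark was listed in embryos alone, so the wing disc counts set binding in one tissue against the mark of another.

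**Figure D4:**
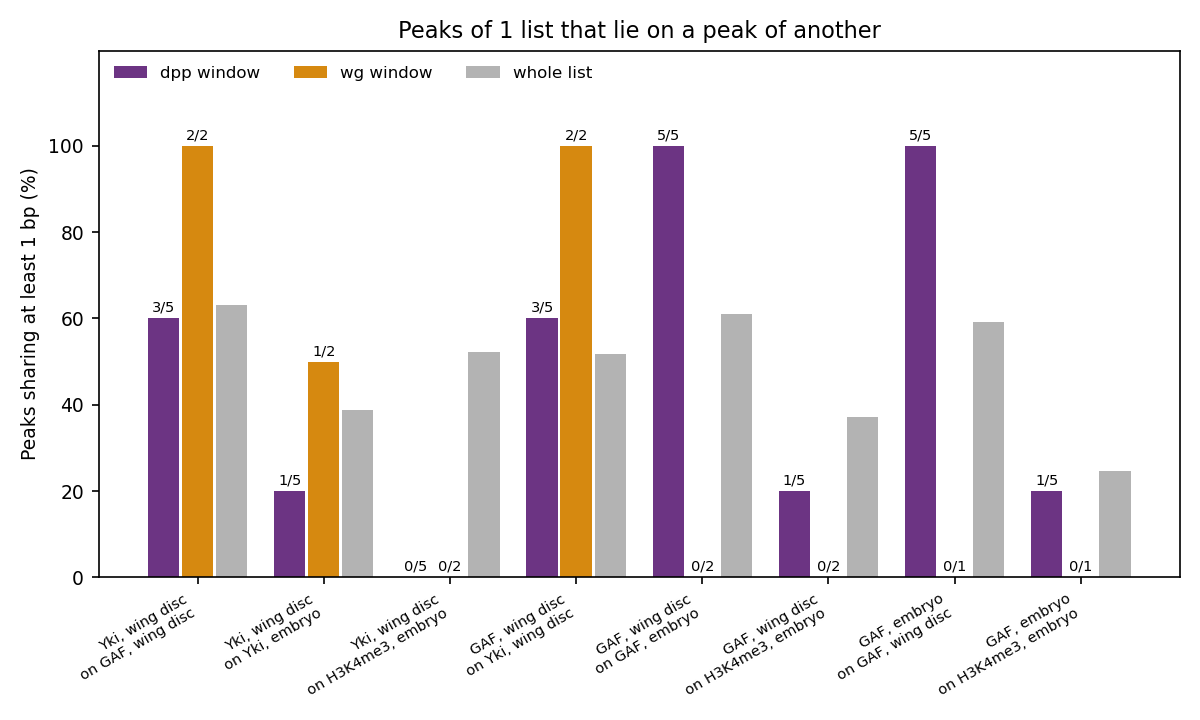
Share of peaks of 1 list that lay on a peak of another (vertical axis, %, at least 1 bp shared), for the dpp window, the wg window and the whole list. Labels over the bars give peaks counted over peaks in the window. GAF is shared between tissues at 5 of 5 dpp peaks and at none at wg, and no Yki bar of either window rises above 0 for H3K4me3.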

How the data were processed

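Chromatin was sonicated, and the recovered DNA was tagmented, amplified by 12 PCR cycles and cut from a gel near 225 bp, per the labels' protocols. Per the submitters' processing notes, CASAVA 1.7.0, BWA and Bowtie were used with the dm3 build. Names in the wing disc lists begin with MACS, per the files. Not given in the sources used here: thresholds, the embryo caller, the use of inputs and the pooling of replicates. The deposited files hold peak starts (from 0, printed here from 1) and ends, and both wing disc lists hold a deposited score of unstated scale. Depth is unknown.

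Overlaps, densities and ranks were computed in Python 3.11.15 (pandas 2.3.3, numpy 2.4.6), intervals with scipy 1.17.1 and figures with matplotlib 3.10.9. Overlap means at least 1 bp shared. Touching Yki and GAF peaks were joined into sites. Shares of locus peaks carry exact Clopper-Pearson 95% intervals. The arm length was the last peak end over the 5 lists. Counting of overlaps was checked on simulated peaks. No hypothesis test was made, since each group has 1 list. Named with position were all H3K4me3 peaks, all sites in 4 lists and the 3 peaks per list and window that ranked highest by score (in embryos, by width); the others were added so that all 24 are accounted for. Members, lists and rules were chosen with earlier results of these data known. Other settings tried were midpoints within 500 bp, a reciprocal overlap of 50%, windows 10 kb longer at both ends, midpoints inside the window, the top 50% of each list, and joining across 500 bp. Sequences, motifs and pathway genes were not analysed here, for want of dm3 sequence and gene positions.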

Additional observations from a re-analysis of the deposited data

How the results depend on the processing

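Shares rest on 1 to 5 peaks, so their exact intervals are too wide to show stability, and the values are given as they stand. Every count with midpoints inside the windows, and every site count when peaks were joined across 500 bp, was within 1.5 times the count reported. With windows 10 kb longer at both ends the Yki embryo peaks numbered 2 at dpp and 2 at wg, and the H3K4me3 peaks 4 at dpp. GAF of wing discs then lay on GAF of embryos at 83.3% at dpp and 33.3% at wg (5 of 6 and 1 of 3), and Yki of embryos on GAF of embryos at 50% at dpp (1 of 2). With the top 50% of each list by score or width, dpp kept 1 Yki wing disc, 2 GAF embryo and 1 H3K4me3 peak, and wg kept 0 GAF wing disc, 0 Yki embryo and 0 GAF embryo peaks. Under that setting Yki wing disc peaks lay on GAF at 100% (1 of 1) at dpp and 0% (0 of 2) at wg and on Yki embryo peaks at 100% and 0%, and neither GAF list touched H3K4me3 at dpp (0% each). At dpp, GAF of wing discs in that top 50% lay on GAF of embryos at 50% (2 of 4). A reciprocal overlap of 50% gave 0% for Yki on GAF at dpp in wing discs and in embryos, 40% for GAF of wing discs on GAF of embryos at dpp, 0% for both GAF lists on H3K4me3 at dpp, and 0% for Yki of wing discs on Yki of embryos at wg. With midpoints within 500 bp both GAF lists were at 0% for H3K4me3 at dpp, and GAF of wing discs met GAF of embryos at 80% (4 of 5). By construction, the top 50% drops low or narrow peaks, and the reciprocal overlap drops pairs of unlike width or little overlap. The midpoint setting drops pairs with midpoints more than 500 bp apart. Not all shares fell, and the reasons for the changes were not tested. The top 50% left no peak to count for 5 shares at wg. Yki touched H3K4me3 at neither locus under the reciprocal overlap, midpoint and top 50% settings, and did so at dpp with the longer window (28.6% in wing discs and 50% in embryos). Leaving out a replicate was not possible with 1 list per group. No paired analysis was possible because the lists carry no replicate numbers and no result comes from a test.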

Other observations

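Outside the windows the loci differed in how near the next peaks stood. After the dpp window, every list had a peak within 4.40 kb of its end, the nearest being H3K4me3 at 2490532 to 2492749, 0.532 kb away, followed by Yki of wing discs at 2.34 kb, GAF of wing discs at 2.71 kb, Yki of embryos at 2.95 kb and GAF of embryos at 4.40 kb. Before it, the nearest peak of any list was 37.1 kb away. After the wg window, peaks of Yki in wing discs (7340068 to 7340278, score 10.93), GAF in wing discs (7339627 to 7340503, score 68.23) and GAF in embryos (7340130 to 7340434) overlapped about 10 kb from its end. The nearest Yki embryo peak on that side was 88.4 kb away, and on the other side one stood 8.19 kb before the window.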
